A study of Mus musculus with 15 samples.

Results

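Mutant CSF3R was added to mouse cells that already held the RUNX1-ETO fusion, and the RNA of these cells was compared with that of cells with the fusion alone. The comparison used 6 of the 15 libraries of the study, 3 labelled RUNX1-ETO_FIRST (RUNX1-ETO and CSF3R-T618I, fusion introduced first) and 3 labelled RUNX1-ETO_ONLY (RUNX1-ETO). The effect of the same receptor without the fusion came from 3 libraries labelled CSF3R_ONLY (CSF3R-T618I) and 3 labelled EMPTY (control vectors), which share no library with the first comparison. The last 3 libraries, in which the receptor was introduced first, entered the fit only to estimate the spread. All groups came from one line that the labels call HoxB, with cell type Blood, so every group carries whatever keeps that line growing. Promoters driving the introduced genes, the species of their sequences and the number of clones could not be read from the sources used here. Nothing says that replicates were separate cultures, so p-values measure the spread between these libraries, which may be technical.

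CSF3R is the receptor for granulocyte colony-stimulating factor, the main growth factor of neutrophils, and it signals through JAK kinases, STAT3, STAT5 and the ERK pathway. The T618I change makes the receptor signal without its ligand and is known from chronic neutrophilic leukaemia. RUNX1-ETO joins the DNA-binding part of RUNX1 to the corepressor ETO (the product of RUNX1T1), binds RUNX sites and is known for holding back the maturation of granulocytes in acute myeloid leukaemia.

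Total counts were 17834284 to 18178292 in the 6 fusion libraries and 17007437 to 18178292 in all 15, and 13123 genes were tested. In 4 libraries (RUNX1-ETO_FIRST replicate 1, RUNX1-ETO_ONLY replicate 3, EMPTY replicate 3 and replicate 3 of the group with the receptor introduced first) genes with long transcripts were low relative to the other replicates. Their correlations of deviation with log transcript length over 8639 genes were -0.638, -0.68, -0.705 and -0.575, and those of the other replicates of the same groups were 0.274 to 0.682. The CSF3R_ONLY libraries showed no such split (-0.121, 0.116 and 0.012). Deviations are from the group mean, so they cannot show which of the 2 kinds CSF3R_ONLY resembles. Leaving libraries out does not settle this for CSF3R_ONLY against EMPTY or for comparisons that use it. EMPTY replicate 3 differed most from its group. The 4 are called short-transcript libraries here, and leading counts are also given without them. No pair of replicates was identical. The cells expressed mast cell and granulocyte genes together. Cpa3, a mast cell protease gene, was at 9229, 9086 and 9992 CPM in RUNX1-ETO_ONLY, and Mpo, a primary granule gene, was at 18468, 17618 and 18618 CPM there. Hoxb8 was at 130.2, 142 and 119.6 CPM in RUNX1-ETO_ONLY and 234, 294 and 255 CPM in RUNX1-ETO_FIRST, a log2 change of 1.0 (SE 0.208, edgeR adjusted p = 0.00196).

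The genes of the alleles were examined first, with levels as CPM, each count scaled to a fixed library size, for replicates 1 to 3 of each group. Rises and falls are given as log2 changes unless a fold is named. EMPTY and CSF3R_ONLY held no counts of Runx1t1 (chr4:13743436-13893649, mm10). It was at 439, 513 and 392 CPM in RUNX1-ETO_ONLY and at 381, 539 and 564 CPM in RUNX1-ETO_FIRST. These 2 groups overlapped, with a log2 change of 0.14 (SE 0.172, edgeR adjusted p = 0.608). Runx1 (chr16:92601466-92826149) was likewise higher in all fusion libraries than in EMPTY, with means of 90.3 ± 7.79 CPM for EMPTY, 547 ± 29.5 for RUNX1-ETO_ONLY and 611 ± 67.7 for RUNX1-ETO_FIRST (mean ± SD, n = 3 in each group). The log2 change of Runx1 with the receptor was 0.16 (SE 0.0942, edgeR adjusted p = 0.241). Without the 4 short-transcript libraries the small rises of Runx1t1 (0.20, edgeR adjusted p = 0.0149) and Runx1 (0.19, edgeR adjusted p = 0.00499) passed the test. The Csf3r counts (chr4:126024550-126044440) did not rise in fusion cells. They were 507, 536 and 530.4 CPM in RUNX1-ETO_ONLY and 416, 401 and 441 CPM in RUNX1-ETO_FIRST, all 3 lower, and the log2 change was -0.32 (SE 0.0842, edgeR adjusted p = 0.00961). In CSF3R_ONLY against EMPTY the change was 0.57 (SE 0.0844, edgeR adjusted p = 7.31e-05). Whether reads of the introduced receptor were counted under this gene is not known, so the label of the receptor was not checked by these counts.

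Adding the receptor to fusion cells changed 3454 genes (26.3% of those tested, adjusted p under 0.05), of which 2097 rose (16.0%) and 1357 fell (10.3%). Changes of at least 2-fold were mostly rises, with 864 genes up (6.58%) and 248 down (1.89%). Without the 4 short-transcript libraries 2743 rose and 2414 fell. The median log2 change over all genes was -0.02. With scaling by library size alone this median moved to -0.14 and the split turned to 1668 risen and 2700 fallen, so small falls depend on the scaling. Without the fusion the receptor changed 4347 genes (33.1%), of which 2617 rose (19.9%) and 1730 fell (13.2%). At least 2-fold, 1080 rose (8.23%) and 425 fell (3.24%).

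Products of mast cells and basophils, Mcpt1, Tph1, Gzmb and Fcer1a, were among the genes that rose most in fusion cells. Mast cells store proteases, histamine and serotonin in granules and release them when IgE crosslinks its receptor. Of 32 tested genes of mast cells, basophils and eosinophils, 21 rose and 5 fell, with a median log2 change of 0.99, beside 26 risen and 1 fallen and a median of 2.79 without the fusion. The receptor effect was lower with the fusion for 19 of them and higher for 1 by the test of the difference. Over all genes tested the shares were 9.42% and 6.42%. For this and the later lists, 16.0% of all genes tested rose and 10.3% fell in fusion cells. Without the fusion 19.9% rose and 13.2% fell. In bulk RNA, fewer cells of a type and less RNA per cell cannot be told apart.

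Tph1 (chr7:46644641-46672537), whose enzyme starts serotonin synthesis, was at 0.255, 0.617 and 0.629 CPM in RUNX1-ETO_ONLY and at 124, 127 and 123 CPM in RUNX1-ETO_FIRST. All fusion libraries with the receptor were far above those without it, by a log2 change of 7.95 (SE 0.171, edgeR adjusted p = 7.42e-14). Without the fusion Tph1 went from 0, 0.0556 and 0.12 CPM to 27.7, 25.8 and 27.3 CPM, with 3 and 1394 counts and a ratio of 474.4 (exact 95% counting interval 162 to 2303). The difference of the 2 effects, -0.77 (SE 0.547, edgeR adjusted p = 0.492), did not pass the test.

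Mcpt1 (chr14:56017971-56020384), a chymase of mucosal mast cells, went from 0.357, 0.103 and 0.472 CPM in RUNX1-ETO_ONLY to 386, 286 and 309 CPM in RUNX1-ETO_FIRST. No library of one group came near the other, and the log2 change was 10.01 (SE 0.52, edgeR adjusted p = 1.25e-09). The change without the fusion was 10.01 (SE 0.48, edgeR adjusted p = 1.85e-10), from 0.11, 0.111 and 2.46 CPM to 901, 925 and 854 CPM. The high value of EMPTY replicate 3 counts here. The difference of the effects was 0.00 with it and -2.86 (edgeR adjusted p = 0.0171) without it.

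Gzmb, the gene of the cytotoxic protease granzyme B, rose from 0.153, 0.206 and 0 CPM to 14, 15.3 and 14.2 CPM, a log2 change of 6.83 (SE 0.469, edgeR adjusted p = 2.72e-08). It reached 181, 184 and 177 CPM in CSF3R_ONLY, so the end level was lower in the cells that held the fusion. The difference of the effects, -2.27 (SE 1.24, edgeR adjusted p = 0.261), did not pass the test. It was -5.5 (edgeR adjusted p = 0.000542) without EMPTY replicate 3 and -6.03 (edgeR adjusted p = 8.95e-06) without the 4 short-transcript libraries. Fcer1a, the IgE-binding chain of the IgE receptor, rose from 0.408, 0.411 and 0.524 CPM to 34.8, 33.6 and 30.1 CPM, by 6.18 (SE 0.199, edgeR adjusted p = 7.77e-11). In EMPTY it had no counts, and CSF3R_ONLY at 19.1, 21.8 and 16.7 CPM was at least 112.7-fold higher than a floor of 3 counts per library. The libraries with both alleles were the highest of these 4 groups.

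Other mast cell genes were already high with the fusion alone and rose further. Cma1, a mast cell chymase, was at 1.79 ± 0.843 CPM in EMPTY, 359 ± 8.08 in CSF3R_ONLY, 283 ± 33.2 in RUNX1-ETO_ONLY and 946 ± 104 in RUNX1-ETO_FIRST (SD, n = 3). Its rise in fusion cells was 1.74 (SE 0.149, edgeR adjusted p = 2.96e-07). Il1rl1, the interleukin 33 receptor, was at 9.57 ± 2.79, 175 ± 5.2, 393 ± 66.8 and 976 ± 115 CPM in the same order and rose by 1.31 (SE 0.156, edgeR adjusted p = 1.19e-05). Both reached their highest level of the 4 groups with both alleles, although the added receptor multiplied them less than in cells without the fusion. Cpa3 had a log2 change of 0.22 (SE 0.16, edgeR adjusted p = 0.358) and Ltc4s, of leukotriene synthesis, of 0.02 (SE 0.201, edgeR adjusted p = 0.966). The 5 members that fell were Mrgprb2 (-2.66), Hpgds (-1.01), Il5ra (-0.72), Siglecf (-0.66) and Kit (-0.65, all log2). Il5ra and Siglecf are eosinophil surface genes, and Kit is the receptor for stem cell factor. Counts of the proteases, which have close paralogs, may share reads.

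The bases upstream of these genes are shown because their promoters can be read beside the rises. Each run holds the 250 bases before the RefSeq start site (GRCm38.p6, the mm10 build), written along the gene's strand, with capitals for a match to TTCNNNGAA, a STAT-type motif, or to TGTGGT, a RUNX-type motif, searched on both strands. Neither motif contains the other. The promoter table held 13 of the 21 named rises and STAT response genes, picked by the naming rule, that were looked up. Socs3 and Cish, named below, were not among the 21 and were not looked up singly. Of these 1, Il7r, held the STAT-type motif and 4, Tph1, Fcer1a, Gzmb and Mcpt1, the RUNX-type motif.
Il7r (chr15:9529877-9530126, minus strand): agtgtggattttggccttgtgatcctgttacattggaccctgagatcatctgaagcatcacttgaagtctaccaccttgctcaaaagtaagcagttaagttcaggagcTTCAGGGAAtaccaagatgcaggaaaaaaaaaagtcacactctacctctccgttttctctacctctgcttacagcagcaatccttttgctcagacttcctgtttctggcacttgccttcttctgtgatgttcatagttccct
Tph1 (chr7:46672538-46672787, minus strand): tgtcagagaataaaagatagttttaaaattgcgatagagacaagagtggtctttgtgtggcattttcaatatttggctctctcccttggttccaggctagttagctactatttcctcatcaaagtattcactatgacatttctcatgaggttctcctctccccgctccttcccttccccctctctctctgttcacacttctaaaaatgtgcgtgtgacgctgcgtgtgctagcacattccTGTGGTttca
Fcer1a (chr1:173227230-173227479, minus strand): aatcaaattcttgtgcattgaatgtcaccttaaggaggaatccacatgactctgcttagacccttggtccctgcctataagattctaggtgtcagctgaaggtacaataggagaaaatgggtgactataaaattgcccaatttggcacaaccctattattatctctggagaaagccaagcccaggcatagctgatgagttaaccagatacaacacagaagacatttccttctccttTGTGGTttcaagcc
Gzmb (chr14:56262335-56262584, minus strand): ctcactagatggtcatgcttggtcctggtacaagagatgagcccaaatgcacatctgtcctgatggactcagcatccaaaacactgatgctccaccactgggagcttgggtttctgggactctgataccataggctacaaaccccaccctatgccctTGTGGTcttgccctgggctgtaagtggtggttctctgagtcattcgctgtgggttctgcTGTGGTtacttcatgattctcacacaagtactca
The Il7r motif begins 142 bases before the RefSeq start site. The GENCODE gene, whose position is given for Il7r below, starts further upstream, so this window lies inside it. The RUNX-type motif begins 10 bases before the RefSeq start site in Tph1, 14 in Fcer1a and 93 in Gzmb, which holds a further match nearer the start. It begins 65 bases before the start in Mcpt1, which is not printed. The 3 were chosen for printing after their matches were seen. Over 9785 tested genes with a promoter, 7.24% held the STAT-type and 13.2% the RUNX-type motif. Among rises of at least 2-fold the shares were 10.1% and 17.1% of 632 promoters. In the mast cell list 14 of 28 promoters held TGTGGT and 0 held TTCNNNGAA, while in the STAT3 and STAT5 response list 4 of 25 (16%) held TTCNNNGAA and 1 held TGTGGT. The mast cell proteases are related in sequence. A match describes letters in this window and was not tested as a binding site.

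Feedback inhibitors and some cytokine receptors of the JAK and STAT pathway rose in fusion cells, while other receptors fell. Of 32 genes known to respond to STAT3 or STAT5, 23 rose and 2 fell (median 0.75), beside 21 and 4 without the fusion (median 0.92). Socs3, an inhibitor that binds the activated receptor, rose from 55, 53 and 49.6 CPM to 195, 195 and 196 CPM, a log2 change of 1.9 (SE 0.0856, edgeR adjusted p = 2.33e-10). Without the fusion it rose from 20.1, 16.8 and 15.8 CPM to 153, 156 and 163 CPM. The end levels of both settings lay within 153 to 196 CPM, from a higher start in the fusion cells. Socs1 had a log2 change of 2.67 (SE 0.125, edgeR adjusted p = 3.71e-10), Cish of 1.25 (SE 0.0697, edgeR adjusted p = 2.56e-09) and Osm, the cytokine oncostatin M, of 2.77 (SE 0.104, edgeR adjusted p = 4.21e-11). Osm was at 21.4 ± 1.29 CPM in CSF3R_ONLY and 128 ± 6.31 in RUNX1-ETO_FIRST. The log2 change of Bcl2l1, an inhibitor of cell death, was 0.16 (SE 0.0862, edgeR adjusted p = 0.184), and Spred2 had a log2 change of 0.06 (SE 0.0857, edgeR adjusted p = 0.688).

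Il7r (chr15:9505788-9530176), the alpha chain of the interleukin 7 receptor, was at 0.867, 0.976 and 0.838 CPM in RUNX1-ETO_ONLY and 50.3, 46.3 and 50.8 CPM in RUNX1-ETO_FIRST. The groups were far apart, with a log2 change of 5.77 (SE 0.135, edgeR adjusted p = 1.74e-13). The rise without the fusion, from 0.11, 0 and 0.12 CPM to 28.7, 27.4 and 29.4 CPM, was larger, and the difference was -2.66 (SE 0.402, edgeR adjusted p = 0.00024). Csf2rb2, a beta chain shared by receptors of interleukin 3 and related cytokines, rose from 442 ± 36.2 to 2486 ± 233 CPM, by 2.49 (SE 0.131, edgeR adjusted p = 1.33e-09). Osmr, a receptor chain for oncostatin M, rose by 3.89 (SE 0.414, edgeR adjusted p = 3.56e-06). Of 35 tested components and receptors of the pathway 11 rose and 7 fell (23 and 2 without the fusion). Among the falls were the receptor genes Il5ra (-0.72), Kit (-0.65), Il6ra (-0.64) and Csf3r (-0.32, all log2). Stat3 had a log2 change of 0.17 (SE 0.0848, edgeR adjusted p = 0.16) and Grb2 of -0.09 (SE 0.082, edgeR adjusted p = 0.45). Stat3 passed the test without the 4 short-transcript libraries (0.18, edgeR adjusted p = 0.00699). In this list the receptor effect was lower with the fusion for 14 members and higher for 1, beside 9.42% and 6.42% of all genes.

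Other raised genes with both a large rise in fusion cells and a large rise without the fusion encode lipid enzymes and a guidance receptor. Alox8, a lipoxygenase, rose from 0.969, 1.39 and 1.31 CPM to 117, 127 and 132 CPM, by 6.67 (SE 0.141, edgeR adjusted p = 7.42e-14). Lipg, endothelial lipase, rose from 0.255, 0.206 and 0.157 CPM to 12.2, 13.8 and 15.2 CPM, by 6.01 (SE 0.254, edgeR adjusted p = 1.11e-10). For Lipg the level in CSF3R_ONLY was 138 ± 5.29 CPM, well above that of the cells with both alleles, and the difference of the effects was -2.79 (SE 0.603, edgeR adjusted p = 0.00451). Nrp2, a neuropilin, went from 2 to 428 counts in fusion cells, a ratio of 231.6 (exact 95% counting interval 63.73 to 1919), and its difference of 0.99 (SE 0.84, edgeR adjusted p = 0.498) did not pass the test.

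**Figure D1:**
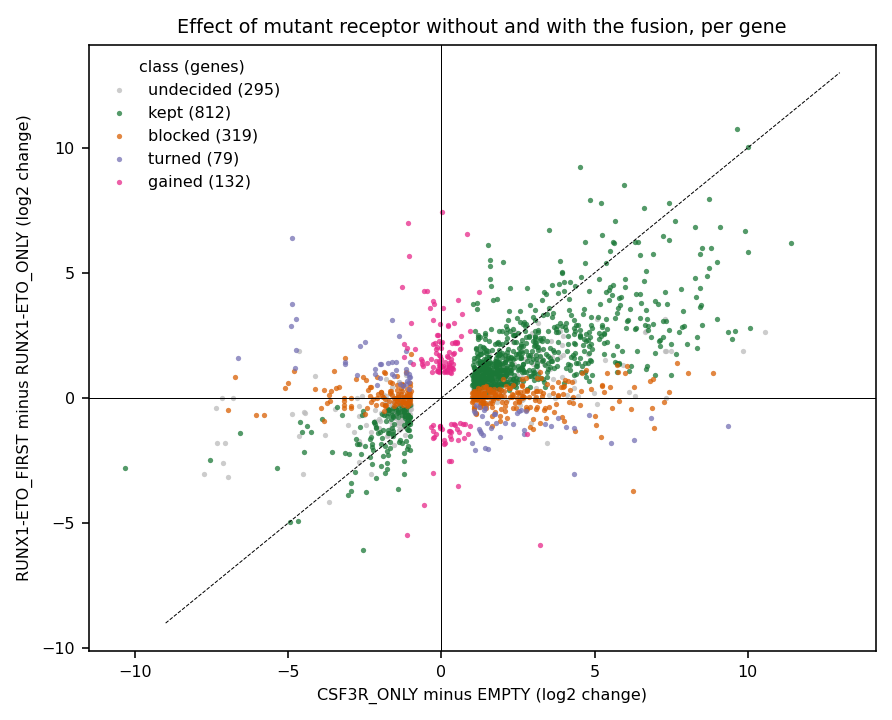
Log2 change of each gene with the receptor added, without the fusion (x axis) and with it (y axis), for the 1505 receptor effects of at least 2-fold and the 132 gained genes, coloured by class. The dashed line marks equal effects, and the 682 kept raised genes lie mostly below it. The blocked genes, which were not called in fusion cells, spread around the line of no change there.

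Receptor effects were sorted by what became of them in fusion cells. A receptor effect is a gene changed at least 2-fold in CSF3R_ONLY against EMPTY. It is called kept where the gene also changed in that direction in fusion cells, turned where it changed the opposite way, and blocked where it did not pass the test there and the difference of the 2 effects did. Blocked thus means no call in fusion cells and does not show that a gene did not change. Some blocked genes, among them Tmem108, Zdhhc2 and Mfsd2b below, were called there in some of the alternatives. Of the 1080 raised genes 682 (63.1%) were kept, 207 (19.2%) blocked, 40 (3.7%) turned and 151 (14%) undecided. Of the 425 lowered genes 130 (30.6%) were kept, 112 (26.4%) blocked, 39 (9.18%) turned and 144 (33.9%) undecided. Without the 4 short-transcript libraries 713 raised and 174 lowered effects were kept and 197 and 113 were blocked.

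Kept did not mean equal in size. The test of the difference, which called 2078 of all genes (15.8%), was passed with a smaller effect in fusion cells by 310 of the 682 kept raised genes and with a larger one by 28. Over all 1080 raised genes the median log2 change was 2.34 without and 1.05 with the fusion. Over the 425 lowered genes it was -1.60 and -0.43. The genes were selected for a large change without the fusion, and the difference subtracts that same change. A smaller effect in fusion cells is thus favoured in part by the selection, and how far was not tested. Over all genes tested the receptor effect was lower with the fusion for 9.42% and higher for 6.42%. Across the 1505 genes the effects had a Pearson correlation of 0.617 (Spearman 0.619), a description across genes that are not independent replicates. Of the 1112 genes changed at least 2-fold in fusion cells 582 also changed at least 2-fold the same way without the fusion, 52.3% of the first list and 38.7% of the second, and 46 changed the opposite way (4.14% and 3.06%).

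The median levels of the classes show where they started. Kept raised genes had medians of 0.33 log2 CPM in EMPTY, 3.21 in CSF3R_ONLY, 1.51 in RUNX1-ETO_ONLY and 3.15 in RUNX1-ETO_FIRST, so both receptor groups reached like medians. Blocked raised genes had 0.16, 2.54, 1.61 and 1.78 in that order, above EMPTY but below CSF3R_ONLY in both fusion groups. Blocked lowered genes had 2.45, 0.68, 1.52 and 1.70. The classes were made from these values, so the levels are a description.

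Neutrophil genes were among the blocked and turned effects. Neutrophils build their granules in stages, with myeloperoxidase and elastase first and lactoferrin, gelatinase and the S100 proteins later. Of 40 later granule and mature neutrophil genes 21 rose and 9 fell in fusion cells, a median log2 change of 0.69, beside 35 risen and 1 fallen and a median of 2.49 without the fusion. The effect was smaller with the fusion for 30 of the 40 and larger for 3, beside 9.42% and 6.42% of all genes tested. Of the raised members 17 were kept, 8 blocked and 7 turned.

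S100a9 (chr3:90692632-90695721), which pairs with S100a8 to form calprotectin, was at 83.3, 64.2 and 127 CPM in EMPTY and 1273, 1238 and 1135 CPM in CSF3R_ONLY, a log2 change of 3.73 (SE 0.235, edgeR adjusted p = 4.86e-09). In fusion cells it was at 98, 96.2 and 136 CPM without and 108, 89.2 and 82.9 CPM with the receptor. These groups overlapped, with a change of -0.24 (SE 0.214, edgeR adjusted p = 0.472), and the difference of the effects was -3.97 (SE 0.311, edgeR adjusted p = 3.31e-07). S100a8 had a log2 change of -0.44 (SE 0.222, edgeR adjusted p = 0.162) in fusion cells and 3.1 (SE 0.234, edgeR adjusted p = 4.24e-08) without the fusion. It passed the test as a small fall without the 4 short-transcript libraries (-0.35, edgeR adjusted p = 0.000684).

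Retnlg (chr16:48872621-48874496), a secreted protein of neutrophils, rose from 0.11, 0.278 and 0.18 CPM to 34.9, 36.8 and 29.1 CPM without the fusion. With it the values were 1.12, 1.9 and 1.57 CPM and 2.3, 1.82 and 1.3 CPM, which overlap. The fusion-cell change was 0.24 (SE 0.257, edgeR adjusted p = 0.557), with a 95% interval of -0.31 to 0.79, against 7.42 without the fusion.

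Cybb, the catalytic chain of the phagocyte oxidase, and Fpr1, a receptor for bacterial formyl peptides, went down in fusion cells. Cybb was at 3.42, 3.03 and 3.35 CPM in RUNX1-ETO_ONLY and 1.79, 1.38 and 1.18 CPM in RUNX1-ETO_FIRST, a change of -1.17 (SE 0.217, edgeR adjusted p = 0.000805), beside 5.9 ± 1.76 and 98.9 ± 2.88 CPM in EMPTY and CSF3R_ONLY. Fpr1 had no counts in EMPTY and was at least 26.62-fold higher in CSF3R_ONLY, and in fusion cells it had a log2 change of -1.12 (SE 0.287, edgeR adjusted p = 0.0103). That fall was not called without the 4 short-transcript libraries (-1.0, edgeR adjusted p = 0.0744). Ltf (chr9:111019271-111042767), lactoferrin, was at 6.45, 7.89 and 8.22 CPM in EMPTY, 47, 51.8 and 48.2 CPM in CSF3R_ONLY, 9.43, 8.27 and 7.39 CPM in RUNX1-ETO_ONLY and 4.15, 2.37 and 2.71 CPM in RUNX1-ETO_FIRST. All 3 values with both alleles were the lowest of the 4 groups, and the log2 change was -1.44 (SE 0.201, edgeR adjusted p = 5.72e-05). Ngp, a later granule protein, fell, with a log2 change of -0.62 (SE 0.147, edgeR adjusted p = 0.00483), against 2.46 without the fusion.

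Other neutrophil genes still rose, less than without the fusion. Mmp9, gelatinase B, rose from 0.051, 0.411 and 0.157 CPM to 1.57, 0.715 and 1.18 CPM, by 2.44 (SE 0.448, edgeR adjusted p = 0.000705), but to 51.7 ± 1.72 CPM (SD, n = 3) in CSF3R_ONLY. Mmp8 rose by 1.05 (SE 0.105, edgeR adjusted p = 1.88e-06) beside 5.72, and Cxcr2, a chemokine receptor of neutrophils, by 1.28 (SE 0.0811, edgeR adjusted p = 1.04e-08) beside 3.77. Il1r2, the decoy receptor of interleukin 1, rose by 2.86 (SE 0.144, edgeR adjusted p = 8.22e-10) beside 3.77, and Ifitm6 by 3.78 (SE 0.29, edgeR adjusted p = 9.03e-08) beside 6.5. Adam8, a membrane metalloprotease, rose more with the fusion, by 2.61 (SE 0.0763, edgeR adjusted p = 2.45e-12) beside 2.11, and the difference passed the test. Fcnb, ficolin B, fell in both settings, a log2 change of -2.95 (SE 0.378, edgeR adjusted p = 2.48e-05) with the fusion. Pglyrp1 had a log2 change of 0.13 (SE 0.232, edgeR adjusted p = 0.749) in fusion cells. Primary granule genes formed a separate list. Of 15 tested, 7 rose and 3 fell (7 and 3 without the fusion), among them Srgn, the granule proteoglycan serglycin, up by 0.91 (SE 0.164, edgeR adjusted p = 0.000602), and Nkg7 down, with a log2 change of -0.83 (SE 0.157, edgeR adjusted p = 0.000953). Only 5 of the rises and 2 of the falls were shared by both settings. The effect was higher with the fusion for 4 members and lower for 2, beside 6.42% and 9.42% of all genes tested. Lyz2 turned, at -0.47 beside 1.39 without the fusion, and Mgst1 was blocked, at 0.20 beside 1.88. Mpo fell, with a log2 change of -0.40 (SE 0.0889, edgeR adjusted p = 0.00312), Elane had a log2 change of 0.07 (SE 0.191, edgeR adjusted p = 0.837) and Prtn3 of 0.11 (SE 0.14, edgeR adjusted p = 0.617).

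**Figure D2:**
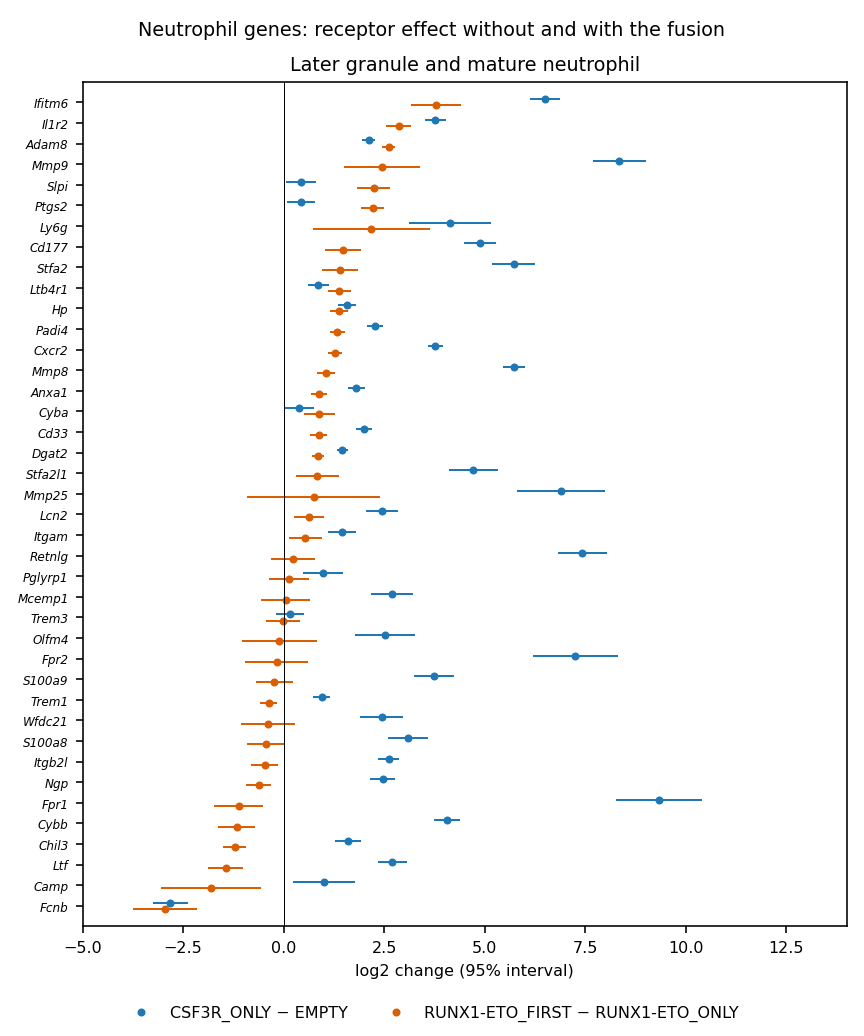
Log2 change with 95% interval of each of the 40 later granule and mature neutrophil genes with the receptor added, without the fusion (blue) and with it (orange). Blue points are above 0 for all genes but Fcnb, and orange points spread on both sides of 0 from Fcnb to Ifitm6.

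Further blocked rises covered complement, nucleoside and membrane genes. C4b, complement component 4, was at 0.771, 0.444 and 0 CPM in EMPTY and 22.1, 24.6 and 24.1 CPM in CSF3R_ONLY. In fusion cells it stood at 8.16, 10.1 and 6.39 CPM without and 8.13, 8.47 and 6.03 CPM with the receptor, overlapping groups that both lay between the other 2. Kdm7a, a histone demethylase, had a difference of the effects of -3.19 (SE 0.295, edgeR adjusted p = 1.73e-06) and a change of 0.09 in fusion cells. Stfa3, a stefin protease inhibitor, had a log2 change of 0.49 (SE 0.277, edgeR adjusted p = 0.226) beside 5.24, and Upp1, uridine phosphorylase, of 0.46 (SE 0.182, edgeR adjusted p = 0.0749) beside 3.98. Upp1 passed the test in fusion cells without the 4 short-transcript libraries (0.45, edgeR adjusted p = 0.0419), far below its change without the fusion. Mfsd2b, a sphingosine-1-phosphate exporter, had a log2 change of -0.76 (SE 0.279, edgeR adjusted p = 0.0588). It was called as a fall without RUNX1-ETO_FIRST replicate 3 (-0.96, edgeR adjusted p = 0.0482) or RUNX1-ETO_ONLY replicate 3 (-0.92, edgeR adjusted p = 0.0315). Zdhhc2, a palmitoyltransferase, had a log2 change of 0.78 (SE 0.335, edgeR adjusted p = 0.101) and was called as a rise without RUNX1-ETO_FIRST replicate 2 (1.08, edgeR adjusted p = 0.0183) or RUNX1-ETO_ONLY replicate 1 (1.15, edgeR adjusted p = 0.0414). Cmah, which modifies sialic acid, had a log2 change of 0.68 (SE 0.589, edgeR adjusted p = 0.448). Ankrd22 had a log2 change of 0.11 (SE 0.626, edgeR adjusted p = 0.926), and its difference of -3.7 was -2.85 (edgeR adjusted p = 0.053) without RUNX1-ETO_ONLY replicate 3.

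The blocked falls included a cyclin and a growth factor receptor. Ccnd2 (chr6:127125162-127152193), cyclin D2 of the G1 phase, fell from 174, 159.7 and 147 CPM in EMPTY to 17.4, 17.7 and 17.9 CPM in CSF3R_ONLY, a log2 change of -3.18 (SE 0.109, edgeR adjusted p = 4.53e-12). In fusion cells it was at 70.1, 69.4 and 55.9 CPM without and 53.6, 62.2 and 62.9 CPM with the receptor. These overlapped, between the levels of the other groups, and the change was -0.13 (SE 0.0994, edgeR adjusted p = 0.39) with a 95% interval of -0.34 to 0.08. Pou2f2, the transcription factor OCT2, was at 34.4 ± 7.25 CPM in EMPTY, 2.59 ± 0.417 in CSF3R_ONLY, 18.6 ± 1.8 in RUNX1-ETO_ONLY and 16.2 ± 1.96 in RUNX1-ETO_FIRST (SD, n = 3). Met, the receptor of hepatocyte growth factor, had a log2 change of 0.06 (SE 0.22, edgeR adjusted p = 0.887) in fusion cells and -1.93 (SE 0.245, edgeR adjusted p = 1.45e-05) without the fusion. Nebl, a nebulin relative that binds actin, had a log2 change of 0.00 (SE 0.194, edgeR adjusted p = 0.992) beside -2.11. Nav2, a neuron navigator, had a log2 change of 0.16 (SE 0.168, edgeR adjusted p = 0.552) beside -2.05. Lhfpl2, with 0.31 beside -2.39, and Cox6a2, a respiratory chain subunit, with -0.29 beside -3.17, were of the same kind. Ldlrad4, a brake on TGF-beta signalling, had a log2 change of -0.22 (SE 0.0918, edgeR adjusted p = 0.0865) beside -1.94, and passed the test as a small fall with scaling by library size alone (-0.34, edgeR adjusted p = 0.0126). Ptprf, a receptor tyrosine phosphatase, at 0.45 (SE 0.205, edgeR adjusted p = 0.124), and Tmem108, at 1.08 (SE 0.394, edgeR adjusted p = 0.0549), rose by the test without the 4 short-transcript libraries (0.46, edgeR adjusted p = 4.31e-06, and 1.38, edgeR adjusted p = 0.00676). Tmem108 was also called without RUNX1-ETO_FIRST replicate 1 (1.36, edgeR adjusted p = 0.019), and its value was lower, and not called, at 0.68 (edgeR adjusted p = 0.283) without replicate 3 of that group.

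**Figure D3:**
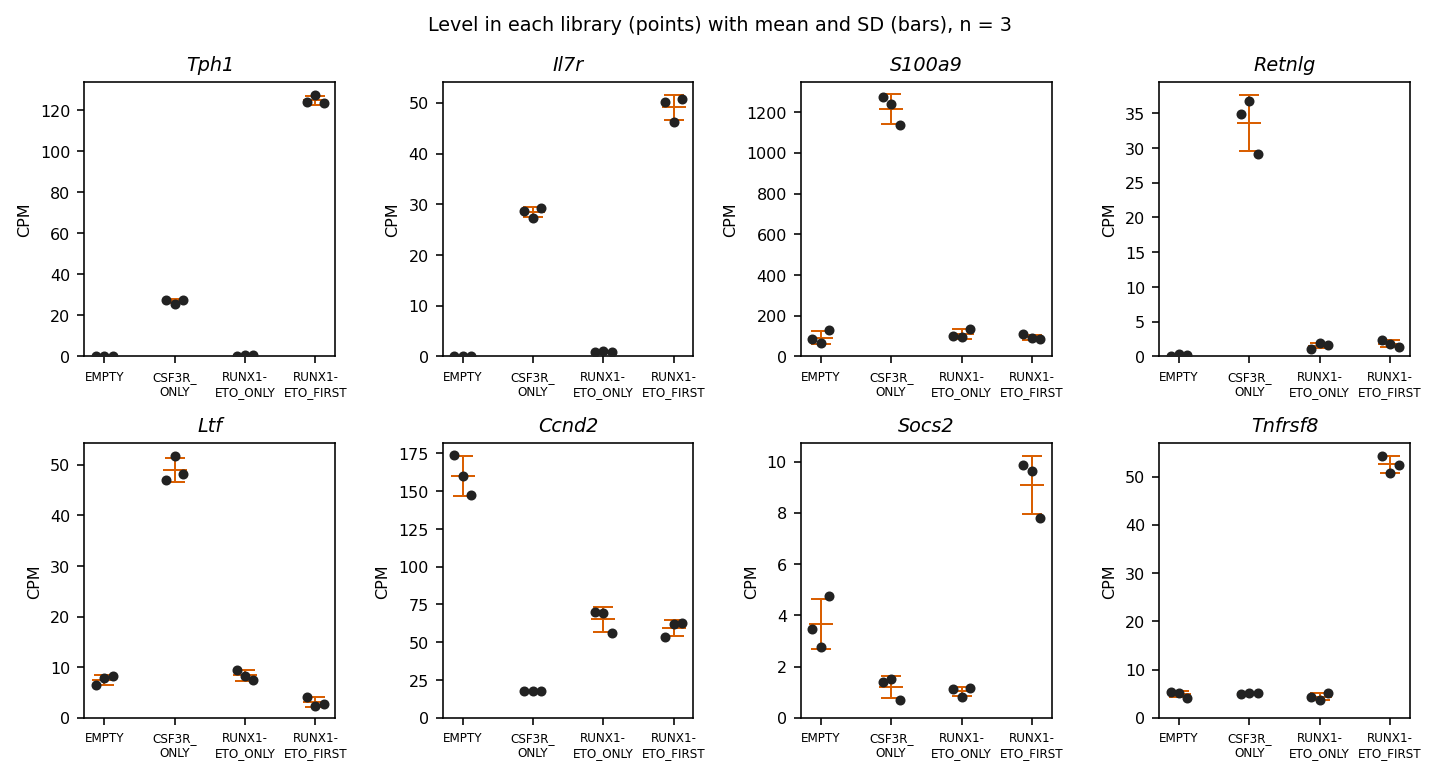
Level in CPM of 8 genes in each library (points) of 4 groups, with mean and SD, n = 3. Tph1 and Il7r were high with the receptor in both settings, S100a9 and Retnlg with the receptor alone, Ltf fell and Socs2 rose in fusion cells against their direction without the fusion, Ccnd2 fell without the fusion only, and Tnfrsf8 was high in RUNX1-ETO_FIRST only among these 4 groups.

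Among the effects that turned, Parm1 and Crispld2 stood higher in RUNX1-ETO_ONLY than in EMPTY and fell when the receptor was added. Parm1, a membrane mucin-like gene, was at 0.155 ± 0.128, 7.34 ± 0.525, 14.9 ± 1.41 and 4.28 ± 0.423 CPM in EMPTY, CSF3R_ONLY, RUNX1-ETO_ONLY and RUNX1-ETO_FIRST. It fell, with a log2 change of -1.79 (SE 0.152, edgeR adjusted p = 2.77e-07) and had a difference of -7.33 (SE 0.316, edgeR adjusted p = 6.69e-10). Crispld2, a secreted protein, fell, with a log2 change of -2.09 (SE 0.166, edgeR adjusted p = 1.4e-07) against 1.11 without the fusion. Chil3, a chitinase-like protein of myeloid cells, was at 70.9, 66 and 80.5 CPM in RUNX1-ETO_ONLY and 33.3, 32.4 and 27.6 CPM in RUNX1-ETO_FIRST. That end level was close to the 29.7 ± 1.62 CPM of CSF3R_ONLY, and the change was -1.22 (SE 0.137, edgeR adjusted p = 5.99e-06) against 1.61.

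The effects that turned upward included Socs2 (chr10:95385362-95417180), a STAT5-dependent feedback inhibitor. It was at 3.47, 2.78 and 4.74 CPM in EMPTY and 1.4, 1.51 and 0.692 CPM in CSF3R_ONLY, a fall, but at 1.12, 0.822 and 1.15 CPM in RUNX1-ETO_ONLY and 9.87, 9.63 and 7.78 CPM in RUNX1-ETO_FIRST. The rise in fusion cells was 3.13 (SE 0.257, edgeR adjusted p = 2e-07) and the difference 4.73 (SE 0.376, edgeR adjusted p = 3.67e-07). Socs1 and Socs3 rose in both settings. Bnip5 was at 51.8, 66.8 and 44.3 CPM in EMPTY and 0.292, 0.695 and 0.634 CPM in CSF3R_ONLY, and at 15.7, 18.3 and 13.9 CPM in RUNX1-ETO_ONLY and 43.7, 52.4 and 49.1 CPM in RUNX1-ETO_FIRST. With both alleles it was back near the EMPTY level, a rise of 1.6 (SE 0.176, edgeR adjusted p = 5.06e-06). H2-Q4, a class I histocompatibility gene, had a log2 change of 1.42 (SE 0.137, edgeR adjusted p = 1.13e-06) against -1.61, and St14, the membrane protease matriptase, of 1.89 (SE 0.18, edgeR adjusted p = 1.01e-06) against -1.17. Akr1c13, an aldo-keto reductase, had a log2 change of 1.44 (SE 0.162, edgeR adjusted p = 6.73e-06) against -1.03.

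A further 94 rises and 38 falls of at least 2-fold were gained, that is, called in fusion cells, not called without the fusion and different by the test. Ccn3, Nptx1 and Iigp1, with no counts in EMPTY or CSF3R_ONLY, did not pass the test of the difference and are not among them. Without counts in both groups the effect without the fusion cannot be estimated. The test could therefore hardly call such genes and does not decide whether their rises were gained. Tnfrsf8 (chr4:145267137-145315164), the CD30 receptor, was at 5.34, 5.06 and 4.2 CPM in EMPTY, 4.9, 5.15 and 5.13 CPM in CSF3R_ONLY, 4.28, 3.65 and 5.08 CPM in RUNX1-ETO_ONLY and 54.4, 50.8 and 52.4 CPM in RUNX1-ETO_FIRST. Only the last group stood apart among these 4, with a rise of 3.6 (SE 0.112, edgeR adjusted p = 4.54e-12) and a difference of 3.54 (SE 0.167, edgeR adjusted p = 1.55e-09). Akr1c12, a relative of Akr1c13, rose from 0.306, 0.36 and 0.105 CPM to 35.8, 32.8 and 32 CPM, by 6.98 (SE 0.219, edgeR adjusted p = 4.68e-12), and was at most 0.36 CPM in the other libraries of the 4 groups. Penk, the precursor of enkephalin peptides, rose from 0.051, 0.0514 and 0.21 CPM to 12.8, 8.64 and 9.36 CPM, by 6.54 (SE 0.328, edgeR adjusted p = 8.22e-10). Its difference of 5.71 (SE 1.18, edgeR adjusted p = 0.00328) was not called without EMPTY replicate 3 (5.02, edgeR adjusted p = 0.0568). Slpi, an inhibitor of neutrophil elastase, rose by 2.23 (SE 0.196, edgeR adjusted p = 4.25e-07), after a fall with the fusion alone from 201 ± 58.9 CPM in EMPTY to 12.8 ± 3.04. Its change without the fusion was 0.43 (SE 0.176, edgeR adjusted p = 0.0743), called as a rise without EMPTY replicate 3 (0.67, edgeR adjusted p = 0.000721) and without the 4 short-transcript libraries (0.68, edgeR adjusted p = 3.3e-14). Ptgs2, cyclooxygenase 2, rose by 2.21 (SE 0.135, edgeR adjusted p = 6.96e-09) beside 0.43 (SE 0.161, edgeR adjusted p = 0.0503). The latter was called without CSF3R_ONLY replicate 1 (0.58, edgeR adjusted p = 0.0107).

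Of the 5 named gained falls 4 concerned genes that stood higher in RUNX1-ETO_ONLY than in EMPTY. Galnt10, an enzyme that starts O-linked glycosylation, was at 9.23, 10.4 and 8.28 CPM in RUNX1-ETO_ONLY and 0.954, 0.935 and 1.58 CPM in RUNX1-ETO_FIRST, a log2 change of -3.0 (SE 0.211, edgeR adjusted p = 3.36e-08), beside 3.72 ± 0.465 CPM in EMPTY. Angpt1, a ligand of the TIE2 receptor, fell, with a log2 change of -1.56 (SE 0.116, edgeR adjusted p = 6.32e-08) from 76.9 ± 7.8 CPM, with 15.3 ± 2.45 in EMPTY. Without the fusion its change was -0.23, called as a small fall without EMPTY replicate 3 (-0.37, edgeR adjusted p = 0.0209) and without the 4 short-transcript libraries (-0.36, edgeR adjusted p = 0.0037). Fbp1, of gluconeogenesis, fell, with a log2 change of -1.54 (SE 0.191, edgeR adjusted p = 1.71e-05) from 23.4 ± 1.49 CPM, with 0.87 ± 0.597 in EMPTY. Without the fusion its change was 0.28, called as a rise without EMPTY replicate 3 (0.95, edgeR adjusted p = 0.0373) and without the 4 libraries (0.96, edgeR adjusted p = 0.0211). Lax1, a membrane adaptor of lymphocytes, fell, with a log2 change of -1.45 (SE 0.16, edgeR adjusted p = 5.22e-06) from 9.85 ± 0.365, with 1.76 ± 0.213 in EMPTY. For Pkp4, a junction protein, the log2 change of -1.78 (SE 0.248, edgeR adjusted p = 5.78e-05) began from 22.1 ± 1.81 CPM, close to 20.1 ± 4.3 in EMPTY.

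Several of the largest rises had no counts or nearly none before the receptor was added. Ccn3, a secreted matricellular protein, had no counts in EMPTY, CSF3R_ONLY or RUNX1-ETO_ONLY and was at 21.4, 20.2 and 19.1 CPM in RUNX1-ETO_FIRST, at least 130.7-fold higher than the floor of 3 counts per library. Cck, the peptide hormone cholecystokinin, had none in RUNX1-ETO_ONLY and was at 12.6, 11.1 and 12.9 CPM in RUNX1-ETO_FIRST, at least 78.93-fold higher. It also appeared in CSF3R_ONLY, at 4.96, 6.25 and 5.54 CPM, at least 32.73-fold above the floor. Trgc1, a T cell receptor gamma constant segment, went from 2 to 561 counts, a ratio of 303.6 (exact 95% counting interval 83.65 to 2513). Nptx1, a neuronal pentraxin, rose from 0.306, 0.206 and 0.157 CPM to 12.8, 14.2 and 16 CPM, by 5.96 (SE 0.216, edgeR adjusted p = 2.64e-09), with no counts in EMPTY or CSF3R_ONLY. Arg1, arginase 1, rose from 0.051, 0.0514 and 0.21 CPM to 8.75, 8.31 and 7.84 CPM, by 6.24 (SE 0.359, edgeR adjusted p = 2.16e-08), and had no counts in EMPTY. For Ccn3, Nptx1, Trgc1 and Arg1, with few or no counts without the fusion, the difference of the effects was not called, and so few counts leave that test undecided.

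Otogl, an otogelin relative, fell from 14.6, 13.3 and 10.2 CPM to 0.449, 0.88 and 1.24 CPM, a log2 change of -3.88 (SE 0.311, edgeR adjusted p = 1.45e-07). It also fell without the fusion (-3.03). Chdh, choline dehydrogenase, fell from 13, 15.1 and 10.4 CPM to 1.12, 1.93 and 1.64 CPM, a log2 change of -3.03 (SE 0.266, edgeR adjusted p = 4.03e-07). It was lower with each allele alone, at 19.8 ± 1.93 CPM in CSF3R_ONLY and 12.8 ± 2.34 in RUNX1-ETO_ONLY against 46.1 ± 11 in EMPTY, and lowest with both. Tifab, an inhibitor of TRAF6 signalling, fell from 11.3, 11.4 and 9.48 CPM to 2.08, 1.82 and 1.8 CPM, a log2 change of -2.5 (SE 0.186, edgeR adjusted p = 6.7e-08). Without the fusion its fall was larger, from 55, 53.8 and 58 CPM to 0.408, 0.0579 and 0.404 CPM, and the difference was 5.05 (SE 0.353, edgeR adjusted p = 9.62e-08).

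Kcnk12, a potassium channel, showed the same order, with -2.8 (SE 0.252, edgeR adjusted p = 5.62e-07) in fusion cells beside -5.37. Ptgds, a prostaglandin D synthase, fell, with a log2 change of -2.17 (SE 0.338, edgeR adjusted p = 0.000168) beside -4.5, and its difference was not called without CSF3R_ONLY replicate 1 (2.05, edgeR adjusted p = 0.0518). Phactr2, a phosphatase and actin regulator, fell, with a log2 change of -1.66 (SE 0.222, edgeR adjusted p = 4.04e-05) beside -2.79. Nwd1 (-1.91 beside -1.83), Nid2, a basement membrane protein (-1.83 beside -1.96), Mc5r, a melanocortin receptor (-1.42 beside -1.75), and Nrgn (-1.39 beside -1.72) fell by like amounts in both settings. None of these 4 differences passed the test. Dntt, a DNA polymerase of early lymphocytes that the fusion alone raised from 0.0736 ± 0.0841 to 10.1 ± 0.771 CPM, fell, with a log2 change of -2.69 (SE 0.326, edgeR adjusted p = 3.23e-05). Aff3, a nuclear protein, fell, with a log2 change of -2.1 (SE 0.203, edgeR adjusted p = 1.22e-06) beside -0.78. Selenop, a selenium carrier, fell, with a log2 change of -1.92 (SE 0.167, edgeR adjusted p = 3.58e-07), and the interferon-inducible Ifi203 with -1.84 (SE 0.294, edgeR adjusted p = 0.000216).

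**Figure D4:**
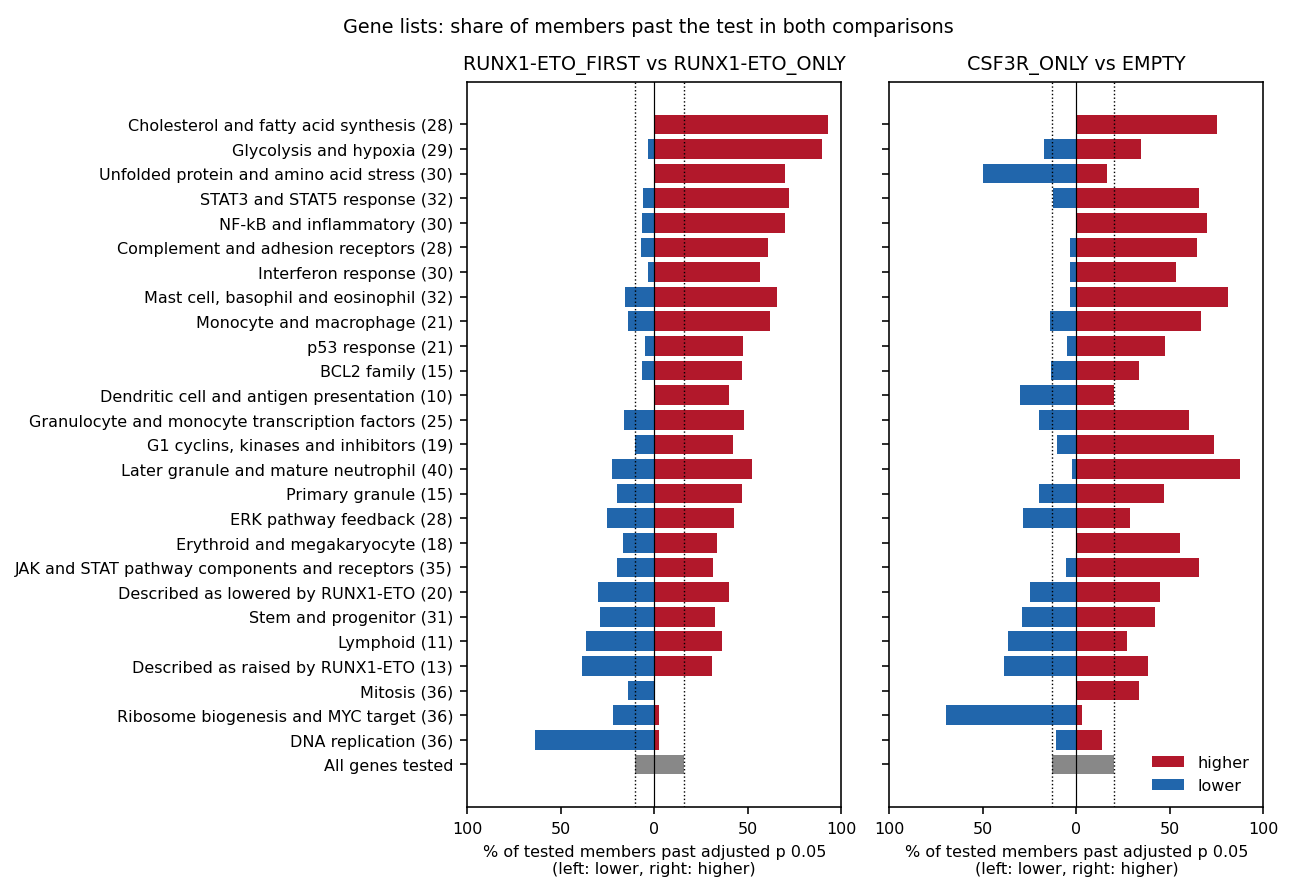
Share of tested members of each gene list (number in brackets) past an adjusted p of 0.05, higher to the right and lower to the left, in fusion cells (left panel) and without the fusion (right panel). Dotted lines and the grey bar mark the shares over all genes tested, 16.0% higher and 10.3% lower in fusion cells and 19.9% and 13.2% without the fusion.

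Genes of cholesterol and fatty acid synthesis rose in both settings. Of 28 genes of cholesterol and fatty acid synthesis 26 rose and 0 fell, a median log2 change of 0.71, beside 21 and 0 (median 0.55) without the fusion. By the test of the difference the effect was larger with the fusion for 5 of them and smaller for 1. Over all genes tested 6.42% were higher and 9.42% lower with the fusion. Scd1, which desaturates fatty acids, rose from 55.3, 53.6 and 46.1 CPM to 248, 271 and 273 CPM, by 2.35 (SE 0.134, edgeR adjusted p = 3.1e-09). Fdps, of the mevalonate pathway, had a log2 change of 1.45 (SE 0.151, edgeR adjusted p = 2.66e-06), Mvd of 1.43 (SE 0.0959, edgeR adjusted p = 2.07e-08) and Lss, lanosterol synthase, of 1.28 (SE 0.0785, edgeR adjusted p = 7.06e-09). Fasn at 0.23 (SE 0.164, edgeR adjusted p = 0.354) and Acaca at 0.19 (SE 0.147, edgeR adjusted p = 0.393), which build fatty acids, were the 2 members without a call, and both passed the test without the 4 short-transcript libraries (0.22, edgeR adjusted p = 0.015, and 0.18, edgeR adjusted p = 0.0101).

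Glycolysis and hypoxia genes rose in fusion cells, 26 of 29 with 1 fall (median 0.63), beside 10 rises and 5 falls (median 0.16) without the fusion. The effect was higher with the fusion for 16 of them and lower for 1, beside 6.42% and 9.42% of all genes tested. Eno1, enolase, was at 1723, 1682 and 1981 CPM in RUNX1-ETO_ONLY and 3734, 3146 and 3236 CPM in RUNX1-ETO_FIRST, a change of 0.91 (SE 0.132, edgeR adjusted p = 8.84e-05). It started below the 2534, 2640.2 and 3823 CPM of EMPTY and the 3062, 2979 and 3136 CPM of CSF3R_ONLY. The level with both alleles lay within the range of these only through EMPTY replicate 3, a short-transcript library. It was above all other libraries of EMPTY and CSF3R_ONLY. Slc16a3, a lactate exporter, had a log2 change of 1.47 (SE 0.0817, edgeR adjusted p = 2.34e-09), Slc2a1, the glucose transporter GLUT1, of 0.94 (SE 0.0645, edgeR adjusted p = 2.63e-08) and Ldha, lactate dehydrogenase, of 0.72 (SE 0.116, edgeR adjusted p = 0.000223). Vegfa, a vessel growth factor, rose by 0.68 (SE 0.0781, edgeR adjusted p = 8.04e-06) in fusion cells and fell by the test, -0.27 (SE 0.0775, edgeR adjusted p = 0.0126), without the fusion. Egln3 (0.85 and -0.33) and Car9 (0.59 and -0.66), both known to respond to hypoxia, went opposite ways too. Aldoc had a log2 change of 1.65 (SE 0.0992, edgeR adjusted p = 5.56e-09) and Eno2 of 2.54 (SE 0.493, edgeR adjusted p = 0.00114). Ndrg1 had a log2 change of 1.14 (SE 0.067, edgeR adjusted p = 4.7e-09), and Pdk1 of 0.24 (SE 0.123, edgeR adjusted p = 0.175).

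Most unfolded protein and amino acid stress genes rose in fusion cells and fewer did without the fusion. Of 30, 21 rose and 0 fell in fusion cells (median 0.43), while 5 rose and 15 fell without the fusion (median -0.23). The difference passed the test for 22, all higher with the fusion, beside 6.42% of all genes tested. Calls in opposite directions were made for 8 of the 30, Atf5, Calr, Creld2, Ddit3, Hyou1, Pdia4, Pdia6 and Trib3, while 4, Slc3a2, Slc7a11, Slc7a5 and Xbp1, rose in both settings. A further 9 rose with the fusion and were not called without it, and 7, among them Asns, Phgdh and Psat1 of amino acid synthesis, fell without the fusion and were not called with it. With scaling by library size alone 18 rose and 3 fell. Hspa5, the main chaperone of the endoplasmic reticulum, was at 1256, 1202 and 1176 CPM in EMPTY, 1114, 1086 and 1148 CPM in CSF3R_ONLY, 866, 806 and 845 CPM in RUNX1-ETO_ONLY and 1255, 1311 and 1243 CPM in RUNX1-ETO_FIRST. The RUNX1-ETO_ONLY libraries were the lowest of the 4 groups, and those with both alleles overlapped EMPTY, a rise of 0.60 (SE 0.0701, edgeR adjusted p = 9.9e-06). Atf3, a stress-induced transcription factor, rose by 2.02 (SE 0.371, edgeR adjusted p = 0.000705), Trib3 by 1.17 (SE 0.122, edgeR adjusted p = 2.74e-06) beside -0.50, and Atf5 by 1.09 (SE 0.0823, edgeR adjusted p = 7.98e-08) beside -0.59. Slc7a11, a cystine transporter, rose by 1.33 (SE 0.218, edgeR adjusted p = 0.00027) and Vldlr by 1.19 (SE 0.132, edgeR adjusted p = 5.65e-06). Shmt2, of serine metabolism, had a log2 change of -0.01 (SE 0.0836, edgeR adjusted p = 0.975) in fusion cells and of -0.56 (SE 0.0839, edgeR adjusted p = 7.92e-05) without the fusion. Atf4 had a log2 change of 0.24 (SE 0.0863, edgeR adjusted p = 0.0519) and was called without RUNX1-ETO_FIRST replicate 3 (0.30, edgeR adjusted p = 0.0286).

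**Figure D5:**
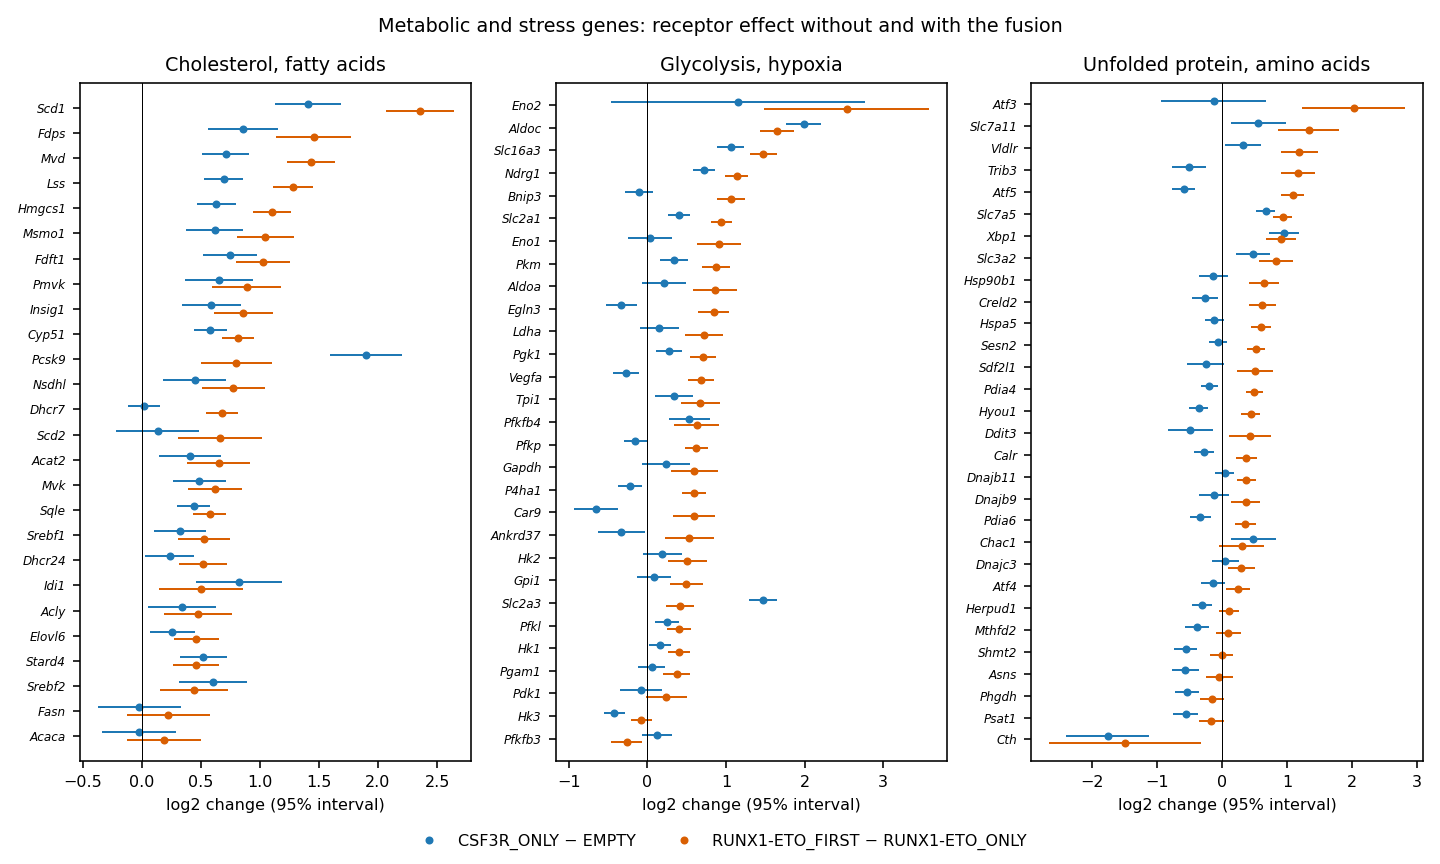
Log2 change with 95% interval of the tested genes of 3 lists, less those not reported, with the receptor added, without the fusion (blue) and with it (orange). Most cholesterol genes were above 0 in both settings, while most unfolded protein genes were above 0 with the fusion and below 0 without it.

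Genes of DNA replication fell by small amounts in fusion cells. Of 36, 23 fell and 1 rose (median -0.31), beside 4 and 5 (median -0.06) without the fusion. The difference was lower with the fusion for 10, beside 9.42% of all genes tested. With 1 library left out 16 to 19 fell, and 29 without the 4 short-transcript libraries. Pole, a replicative polymerase subunit, was at 142, 167 and 142 CPM in RUNX1-ETO_ONLY and 91.5, 112 and 109 CPM in RUNX1-ETO_FIRST, a change of -0.53 (SE 0.13, edgeR adjusted p = 0.00679). Gins3 and Prim1 had a log2 change of -0.63 (SE 0.102, edgeR adjusted p = 0.000219) and -0.57 (SE 0.0687, edgeR adjusted p = 1.35e-05), and Mcm7, of the replicative helicase, of -0.33 (SE 0.0696, edgeR adjusted p = 0.00198). Rrm2 had a log2 change of 0.12 (SE 0.0614, edgeR adjusted p = 0.172) and Rfc2 of -0.15 (SE 0.101, edgeR adjusted p = 0.319).

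Of 36 mitosis genes 0 rose and 5 fell in fusion cells, where 16.0% of all genes tested rose and 10.3% fell. Without the fusion 12 rose and 0 fell, beside 19.9% and 13.2% of all genes tested. The difference was lower with the fusion for 14, beside 9.42% of all genes tested. The number fallen was 15 with scaling by library size alone, 13 without the 4 short-transcript libraries and 2 to 5 with 1 library left out. Nuf2 and Ttk, of the kinetochore and its checkpoint, had a log2 change of -0.37 (SE 0.0905, edgeR adjusted p = 0.00603) and -0.32 (SE 0.0722, edgeR adjusted p = 0.00359). The proliferation marker Mki67 had a log2 change of -0.19 (SE 0.316, edgeR adjusted p = 0.715), and Ube2c of -0.04 (SE 0.149, edgeR adjusted p = 0.884). Of 36 ribosome biogenesis and MYC target genes 1 rose and 8 fell, beside 1 and 25 without the fusion. In fusion cells 18 fell with scaling by library size alone and 23 without the 4 libraries. Polr1b, of RNA polymerase I, fell, with a log2 change of -0.45 (SE 0.0877, edgeR adjusted p = 0.00127), and Dkc1 and Wdr43 had -0.43 (SE 0.0735, edgeR adjusted p = 0.000363) and -0.38 (SE 0.0637, edgeR adjusted p = 0.000305). The 1 rise was Mycn at 3.5 (SE 0.436, edgeR adjusted p = 1.83e-05), and Npm1 had a log2 change of -0.07 (SE 0.0955, edgeR adjusted p = 0.667) and Ncl of -0.22 (SE 0.105, edgeR adjusted p = 0.153).

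Of the G1 phase inhibitors Cdkn1a, Cdkn1b, Cdkn2b and Cdkn2d rose in both settings, while Cdkn2a and Cdkn2c rose only without the fusion. Cdkn2a was blocked, with a log2 change of -0.12 (edgeR adjusted p = 0.71) in fusion cells beside 3.18 without the fusion. Cdkn2c had -0.24 (edgeR adjusted p = 0.0926) beside 0.95, and the difference passed the test for both. Of 19 G1 genes 8 rose and 2 fell (14 and 2 without the fusion). Cdkn1a, the p21 inhibitor, was at 172, 167 and 178 CPM in RUNX1-ETO_ONLY and 535, 446 and 506 CPM in RUNX1-ETO_FIRST, with no overlap and a rise of 1.52 (SE 0.1, edgeR adjusted p = 1.57e-08), beside 0.82 without the fusion. Cdkn2b, the p15 inhibitor, had a log2 change of 1.77 (SE 0.385, edgeR adjusted p = 0.00274) and Cdkn2d of 1.29 (SE 0.0989, edgeR adjusted p = 8.86e-08). Ccnd1, cyclin D1, fell, with a log2 change of -2.14 (SE 0.371, edgeR adjusted p = 0.000433) beside -3.58. Cdk4 and Cdk6 had a log2 change of -0.12 (SE 0.129, edgeR adjusted p = 0.564) and -0.21 (SE 0.094, edgeR adjusted p = 0.122). Of 21 p53 response genes 10 rose and 1 fell (10 and 1 without the fusion). Beside Cdkn1a, Plk3 rose by 1.16 (SE 0.102, edgeR adjusted p = 4.01e-07), and the death receptor Fas by 1.36 (SE 0.352, edgeR adjusted p = 0.0092). Fas was not called without RUNX1-ETO_FIRST replicate 1 (edgeR adjusted p = 0.0617). With scaling by library size alone 6 rose and 5 fell. Of 15 genes of the BCL2 family 7 rose and 1 fell (5 and 2 without the fusion), with Bnip3 at 1.06 (SE 0.085, edgeR adjusted p = 1.44e-07), the cell death activator Bmf at 0.88 (SE 0.196, edgeR adjusted p = 0.0033) and the survival gene Bcl2 at -0.73 (SE 0.135, edgeR adjusted p = 0.00073).

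Inflammatory genes rose in both settings. Of 30 NF-kB and inflammatory genes 21 rose and 2 fell (median 0.56), beside 21 and 0 (median 0.98) without the fusion. The effect was lower with the fusion for 14 and higher for 2, beside 9.42% and 6.42% of all genes tested. Il6, interleukin 6, was at 0.379 ± 0.0886 CPM in EMPTY, 7.67 ± 0.449 in CSF3R_ONLY, 23.8 ± 3.58 in RUNX1-ETO_ONLY and 72.9 ± 4.3 in RUNX1-ETO_FIRST, rising by 1.61 (SE 0.11, edgeR adjusted p = 2.6e-08). Il1a rose by 2.72 (SE 0.506, edgeR adjusted p = 0.00119), Il1rn, the interleukin 1 receptor antagonist, by 2.68 (SE 0.154, edgeR adjusted p = 3.58e-09), and the chemokines Cxcl3 and Cxcl2 by 2.58 (SE 0.538, edgeR adjusted p = 0.00202) and 2.43 (SE 0.328, edgeR adjusted p = 4.33e-05). The 2 falls were Il1b, interleukin 1 beta, a log2 change of -0.78 (SE 0.183, edgeR adjusted p = 0.00463), and Nlrp3, the inflammasome sensor, a log2 change of -0.66 (SE 0.135, edgeR adjusted p = 0.00177), and both rose without the fusion (3.8 and 0.86). The subunit Nfkb1 had a log2 change of -0.01 (SE 0.0691, edgeR adjusted p = 0.943) and Rela of -0.06 (SE 0.0639, edgeR adjusted p = 0.569).

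Of 30 interferon response genes 17 rose and 1 fell (16 and 1 without the fusion). Ifitm1, an antiviral membrane protein, rose by 4.22 (SE 0.234, edgeR adjusted p = 2.48e-09), Zbp1, a nucleic acid sensor, by 3.05 (SE 0.186, edgeR adjusted p = 6.82e-09) and Oas2 from 3 to 21 counts, a ratio of 7.576 (exact 95% counting interval 2.262 to 39.67). Iigp1 had no counts in the other 3 groups and was at least 9.964-fold above the floor in RUNX1-ETO_FIRST. Irf1 had a log2 change of 0.17 (SE 0.0883, edgeR adjusted p = 0.19) and Irf9 of 0.08 (SE 0.081, edgeR adjusted p = 0.534). Of 21 monocyte and macrophage genes 13 rose and 3 fell (14 and 3 without the fusion), led by Lgals3, galectin 3, at 3.49 (SE 0.186, edgeR adjusted p = 1.51e-09), Gpnmb at 2.85 (SE 0.199, edgeR adjusted p = 3.18e-08), Vcan, the proteoglycan versican, at 2.34 (SE 0.284, edgeR adjusted p = 1.45e-05) and Fcgr1, an IgG receptor, at 1.86 (SE 0.227, edgeR adjusted p = 1.54e-05). Ccr2, a chemokine receptor of monocytes, fell, with a log2 change of -0.93 (SE 0.111, edgeR adjusted p = 1.1e-05). Mpeg1, at -0.32 (SE 0.133, edgeR adjusted p = 0.0918), fell by the test without the 4 short-transcript libraries (-0.41, edgeR adjusted p = 0.0108), and Apoe had a log2 change of -0.48 (SE 0.243, edgeR adjusted p = 0.168). Of 28 complement and adhesion genes 17 rose and 2 fell (18 and 1 without the fusion), with Itga2 at 3.05 (SE 0.371, edgeR adjusted p = 3.3e-05), Cd55, which protects cells from complement, at 2.16 (SE 0.108, edgeR adjusted p = 7.97e-10) and C3ar1 at 1.86 (SE 0.0904, edgeR adjusted p = 5.69e-10). Itga1 went from 1 to 25 counts, a ratio of 27.06 (exact 95% counting interval 4.429 to 1111). C3 had a log2 change of 0.32 (SE 0.182, edgeR adjusted p = 0.22) and Itgal of -0.08 (SE 0.0846, edgeR adjusted p = 0.554). Of 28 ERK feedback genes 12 rose and 7 fell (8 and 8 without the fusion), with Ier3 at 1.92 (SE 0.105, edgeR adjusted p = 2.02e-09), Fosl2 at 1.45 (SE 0.198, edgeR adjusted p = 4.9e-05), Fosl1 at 1.24 (SE 0.146, edgeR adjusted p = 9.98e-06) and Etv5 at 0.10 (SE 0.143, edgeR adjusted p = 0.683).

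Transcription factors of the lineages shifted in part. Of 25, 12 rose and 4 fell (15 and 5 without the fusion). Klf2 had a log2 change of 2.07 (SE 0.13, edgeR adjusted p = 9.31e-09), Junb of 1.15 (SE 0.087, edgeR adjusted p = 7.87e-08) and Rara, a retinoic acid receptor, of 1.11 (SE 0.121, edgeR adjusted p = 4.51e-06). Gata2, which mast cells and stem cells need, rose by 1.04 (SE 0.0832, edgeR adjusted p = 1.43e-07). Gfi1b, of erythroid and megakaryocyte cells, went from 41.5 ± 0.986 CPM in RUNX1-ETO_ONLY to 19.1 ± 0.556, a change of -1.12 (SE 0.101, edgeR adjusted p = 5.62e-07), against 3.59 without the fusion. Cebpa, which granulocytes need, had a log2 change of 0.17 (SE 0.071, edgeR adjusted p = 0.103), and Spi1, the factor PU.1, of 0.29 (SE 0.156, edgeR adjusted p = 0.193). Spi1 passed the test without the 4 short-transcript libraries (0.31, edgeR adjusted p = 2.02e-05). Of 31 genes of stem cells and progenitors, 10 rose and 9 fell (13 and 9 without the fusion). Ly6a, the surface marker SCA-1, rose from 23.7, 22.5 and 27.6 CPM to 402, 312 and 271 CPM, by 3.74 (SE 0.159, edgeR adjusted p = 1.22e-10). Slamf1 had a log2 change of 2.07 (SE 0.353, edgeR adjusted p = 0.000619) and Trib2, a pseudokinase, of 1.58 (SE 0.126, edgeR adjusted p = 1.45e-07). Cd34 fell from 1156 ± 37.3 to 824 ± 32 CPM, a log2 change of -0.49 (SE 0.069, edgeR adjusted p = 6.59e-05), and stayed above the 236 ± 14.4 of EMPTY. Hlf fell, with a log2 change of -0.82 (SE 0.116, edgeR adjusted p = 7.16e-05) and Lmo2 with -0.82 (SE 0.103, edgeR adjusted p = 1.85e-05). Adgrg1 had a log2 change of -0.15 (SE 0.0748, edgeR adjusted p = 0.15) and Etv6 of 0.05 (SE 0.102, edgeR adjusted p = 0.782).

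Genes described elsewhere as fusion targets did not move one way when the receptor came in. Of 13 genes described as raised by RUNX1-ETO 4 rose and 5 fell (5 and 5 without the fusion), and Spry1, an ERK inhibitor, had a log2 change of -1.07 (SE 0.252, edgeR adjusted p = 0.00478), Rab31 of 0.09 (SE 0.0608, edgeR adjusted p = 0.286) and Cxxc5 of -0.21 (SE 0.0965, edgeR adjusted p = 0.136). Pros1, anticoagulant protein S, had a log2 change of 4.49 (SE 0.697, edgeR adjusted p = 0.000161), a value that was 7.91 without RUNX1-ETO_ONLY replicate 3, which held all its counts in that group. Of 20 genes described as lowered by RUNX1-ETO 8 rose and 6 fell (9 and 5 without the fusion), with Anpep, the surface peptidase CD13, at 1.51 (SE 0.13, edgeR adjusted p = 3.25e-07).

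Markers of other cell types were absent in part. Of the 25 lymphoid markers in the table, Cd3e, Cd3d, Cd3g, Cd4, Cd8a, Ms4a1, Pax5 and Rag1 were at 0 in all 6 fusion libraries, and the summed level was 104 to 120.0 CPM in RUNX1-ETO_ONLY and 118 to 140.0 in RUNX1-ETO_FIRST. Of 11 tested 4 rose and 4 fell (3 and 4 without the fusion), among the rises Il7r and Thy1 at 2.52 (SE 0.139, edgeR adjusted p = 2.17e-09), among the falls Cd79b, from 46 to 1 counts, and Igll1, from 19 to 1. Igll1 was not called without RUNX1-ETO_FIRST replicate 1 (-3.26, edgeR adjusted p = 0.0568) or 2 (-3.25, edgeR adjusted p = 0.0572), and its change was -5.56 without replicate 3. Of the 24 erythroid and megakaryocyte markers, Hba-a2, Slc4a1 and Gp1bb were at 0, the sums were 919 to 969 and 958 to 1040 CPM, and 6 rose and 3 fell of 18 tested (10 and 0 without the fusion), with Ppbp at 1.62 (SE 0.309, edgeR adjusted p = 0.000955), Hbb-bt at 1.81 (SE 0.379, edgeR adjusted p = 0.00208), Car2 at -1.41 (SE 0.0873, edgeR adjusted p = 8.04e-09), Pf4 at -0.58 (SE 0.236, edgeR adjusted p = 0.0877) and Zfpm1 at -0.13 (SE 0.0844, edgeR adjusted p = 0.282). Of the 22 dendritic cell and antigen presentation markers Xcr1, Clec9a, Siglech, Ccr7, H2-Aa and Cd209a were at 0 and the sums were 112 to 128 and 150 to 163 CPM. There 4 rose and 0 fell of 10 tested (2 and 3 without the fusion), with H2-Ab1 at 2.06 (SE 0.252, edgeR adjusted p = 1.54e-05), H2-DMb1 at 1.54 (SE 0.196, edgeR adjusted p = 2.36e-05) and Clec10a at 0.87 (SE 0.124, edgeR adjusted p = 6.8e-05). Of the 16 stromal markers Col1a2, Col3a1, Dcn, Lum and Kdr were at 0, the sums were 90.1 to 100 and 87.3 to 98.5 CPM, and 3 rose and 0 fell of 5 tested (3 and 1 without the fusion), with Col1a1 at 2.94 (SE 0.703, edgeR adjusted p = 0.00529). The sums of the dendritic list did not overlap between the groups. The part of other cells in the results above was not tested.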

How the data were processed

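RNA of 15 libraries of the mouse HoxB line (5 groups, 3 each) was measured by strand-specific mRNA sequencing on a DNBSEQ instrument, per the labels' protocols. The authors deposited 1 table of raw read counts per gene. Per the submitters' processing notes, the authors used mm10 with STAR, Trimmomatic and DESeq2, and no versions were listed. Not given in the sources used here were the counting tool, annotation, strand setting and treatment of shared reads, so close paralogs and overlapping genes may share reads. Groups came from the labels and table columns were matched to samples by their names. The nameless entry of the table, 0.0179% to 0.0305% of counts, was left out.

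Counts were tested with edgeR 4.0.16 in R 4.3.3 (TMM scaling, robust quasi-likelihood F test, filter on low counts by group). All 15 libraries entered, with 5 group means, 10 residual degrees of freedom and Benjamini-Hochberg adjustment over 13123 genes at 0.05. The difference of the receptor effects, RUNX1-ETO_FIRST minus RUNX1-ETO_ONLY less CSF3R_ONLY minus EMPTY, was a contrast of the same fit. Log2 changes are the fitted values, and a fitted change of a gene with few counts in a group is no bound. Each SE of a log2 change was derived from the F test, as the size of the change divided by the square root of F. The 95% intervals of log2 changes were built from it. Both are approximate, above all for genes with few counts in a group. Count ratios carry exact 95% intervals, and these and the floor of 3 counts cover counting error only. The tests were tried on simulated data. Alternatives were other scalings, filters and groups in the fit, DESeq2 1.42.0, limma 3.58.1 (voom), a replicate block and leaving out libraries.

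Members and lists (28 lists, 605 of 700 genes tested) were chosen with earlier results of these data known. Genes were named by a rule. It took the allele genes, then the largest called changes with at least 3 mean log2 CPM in the higher group and no overlap between libraries (15 rises and 15 falls in fusion cells, 8 kept, 10 blocked, 5 turned and 5 gained in each direction). From each list it took up to 4 members with the largest called change and up to 2 abundant members without a call. Other named list members, among them Cpa3, Cma1, Socs3, Mmp9, Cybb, Eno1, Hspa5 and Il6, were chosen after their values were seen. Gene positions are from GENCODE M21 (mm10). A few genes of the lists and of the naming rule are counted but not reported here.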

Additional observations from a re-analysis of the deposited data

Results flagged for a closer look

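The receptor effect with the fusion minus that without it was tested for the named genes, and those past the threshold (edgeR adjusted p under 0.05) drew attention because the effects of the same receptor differ between the settings. Values are differences of log2 changes, with n = 3 libraries in each of the 4 groups. No explanation was tested.

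Among the largest rises and falls in fusion cells the differences were Akr1c12 (8.09), Alox8 (-3.23), Penk (5.71), Fcer1a (-5.24), Lipg (-2.79) and Il7r (-2.66) for rises, and Chdh (-1.81), Galnt10 (-2.72), Kcnk12 (2.57), Tifab (5.05), Ptgds (2.33), Aff3 (-1.32), Crispld2 (-3.19), Selenop (-0.84), Parm1 (-7.33) and Phactr2 (1.14) for falls. Those of Alox8, Fcer1a and Akr1c12 rest on a group with 0 to 3 counts, so their size is not firm. That of Phactr2 was not called without RUNX1-ETO_FIRST replicate 2 or 3, RUNX1-ETO_ONLY replicate 3, CSF3R_ONLY replicate 1 or 3, or EMPTY replicate 2 (0.91 to 1.11, edgeR adjusted p = 0.0505 to 0.08). Those of Penk without EMPTY replicate 3, Ptgds without CSF3R_ONLY replicate 1 and Ankrd22 without RUNX1-ETO_ONLY replicate 3 were not called either. Csf3r itself had -0.89.

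Blocked rises had differences of Retnlg (-7.18), C4b (-5.93), Stfa3 (-4.75), Cmah (-3.46), Upp1 (-3.52), Mfsd2b (-4.7), Ankrd22 (-3.7), S100a9 (-3.97), Kdm7a (-3.19) and Zdhhc2 (-2.47). Blocked falls had Pou2f2 (3.53), Tmem108 (4.58), Ptprf (3.79), Ccnd2 (3.05), Cox6a2 (2.88), Lhfpl2 (2.7), Nebl (2.11), Nav2 (2.21), Ldlrad4 (1.72) and Met (1.99).

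Turned effects had Ltf (-4.15), Chil3 (-2.83), Socs2 (4.73), St14 (3.06), Bnip5 (8.23), Akr1c13 (2.46) and H2-Q4 (3.03). Gained effects had Tnfrsf8 (3.54), Slpi (1.8), Ptgs2 (1.78), Pkp4 (-1.89), Angpt1 (-1.33), Fbp1 (-1.83) and Lax1 (-1.28).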

How the results depend on the processing

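With scaling by library size alone 2700 genes fell in fusion cells, with limma-voom 2314 and with the 4 short-transcript libraries left out 2414, against 1357. The difference of the receptor effects was called for 3480 genes with limma-voom and 3466 without the 4 libraries, against 2078. With no fold threshold 1252 raised and 521 lowered effects were kept, 522 and 307 blocked, 130 and 105 turned, and 282 and 178 gained. Gained falls numbered 58 with scaling by library size alone and 62 with limma-voom, against 38. The difference for Mcpt1 was -2.59 (edgeR adjusted p = 0.00791) without the 4 libraries and -2.86 (edgeR adjusted p = 0.0171) without EMPTY replicate 3, and 0.54 without EMPTY replicate 1, against 0.00. With 1 library left out the counts ranged from 2757 to 3055 for changes in fusion cells (1774 to 1937 risen, 965 to 1118 fallen), 3502 to 4494 without the fusion and 1644 to 2338 for the difference. Kept effects ranged from 634 to 704 raised and 109 to 162 lowered, blocked from 181 to 224 and 96 to 120, turned from 32 to 41 and 35 to 44, and gained from 76 to 93 and 29 to 46. Same-numbered libraries of the fusion groups had correlations of deviations of -0.382, 0.52 and -0.436. The highest, 0.688, was between RUNX1-ETO_FIRST replicate 1 and RUNX1-ETO_ONLY replicate 3, both short-transcript libraries. As these deviations go with transcript length, they cannot show whether the numbers pair the samples. With the replicate block 3573 genes changed in fusion cells (2161 risen, 1412 fallen) and 2155 in the difference. The rise of Slpi without the fusion was called with it (0.47, edgeR adjusted p = 0.0173). The causes were not tested.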
